A study of Mus musculus with 6 samples.

Results

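The genes described here are those of the ATF4 response, the transcriptional arm of the integrated stress response, together with the enzymes of serine and one-carbon metabolism that ATF4 is known to induce. They were taken from a list of 34 genes by gene symbol, using probe sets that the array annotation assigns to exactly 1 gene and, for a gene with more than 1, its brightest probe set by the mean of all 6 arrays. This gave 31 genes of 19938 on the array, and all 31 passed the filter on dim genes. Pycr1, Mat2a and Ahcy had no probe set with their symbol alone and are not analysed here.

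The cells were mouse pre-B cells of the C57BL/6 strain transformed with BCR-ABL1, a fusion kinase that drives Philadelphia-positive leukaemia, and all of them carried floxed (fl/fl) alleles of Inpp5d, which encodes the lipid phosphatase SHIP1. Cells on 3 arrays had been transduced with the construct PMIP-CRE-ERT2, a Cre recombinase activated by tamoxifen (labelled Cre-ERT2). Those on the other 3 carried PMIP-ERT2, the tamoxifen-binding domain without Cre (ERT2 control). Both groups were treated with 4OH-Tamoxifen at 0.5 µM, and RNA of puromycin-resistant cells was taken after 2 days. No group had Cre without floxed alleles or floxed alleles without tamoxifen, so effects of Cre itself and of Inpp5d loss cannot be told apart. Whether a group's 3 samples are separate cultures is not stated, and p-values therefore cover only the variation among these samples, part or all of which may be technical.

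ATF4 is a transcription factor whose translation rises when eIF2α is phosphorylated, by PERK (Eif2ak3) in response to stress of the endoplasmic reticulum or by GCN2 (Eif2ak4) in response to uncharged tRNA. Its targets include enzymes that make asparagine, serine and glycine, mitochondrial folate enzymes that turn serine into one-carbon units for nucleotide synthesis, amino acid transporters and aminoacyl-tRNA synthetases. Growing lymphoid cells draw on these pathways for protein, nucleotide and glutathione synthesis.

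Values are log2 signals of the normalized arrays, and differences are the mean of the arrays labelled Cre-ERT2 minus the mean of the ERT2 control arrays. The arrays held pre-B cell RNA by their markers: the mean log2 value over 11 pre-B genes was 12.63 to 12.68 on the controls and 12.65 to 12.70 on the arrays labelled Cre-ERT2. Of these 11, 1 was higher, Dntt, which encodes terminal transferase (0.33, limma's adjusted p = 0.0176), and 10 did not pass. Inpp5d itself was not lower, at 13.20, 13.21 and 13.17 on the controls and 13.37, 13.34 and 13.34 on the arrays labelled Cre-ERT2 (adjusted p = 0.0545). Its groups did not overlap, and it passed as higher in 5 of 16 other settings (adjusted p = 0.00364 to 0.0485). After centring its difference was 0.056 (adjusted p = 0.595), and whether its probe set lies in the floxed exons is not stated. Because the target does not follow the label, the groups are named by their labels throughout. Across probe sets, array 3 of the group labelled Cre-ERT2 was closer to ERT2 control arrays 3 and 1 (Pearson's r = 0.997 and 0.996) than to Cre-ERT2 arrays 1 and 2 (0.994 and 0.995). Cre-ERT2 arrays 1 and 2 were also closer to ERT2 control array 3 (0.9927 and 0.9941) than to each other (0.9923), though each was closest to Cre-ERT2 array 3. The arrays thus did not group cleanly by label, and counts are also given without Cre-ERT2 array 3.

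Of 16 enzymes of amino acid and one-carbon metabolism, 8 fell on the arrays labelled Cre-ERT2, among them those of asparagine, alanine and cysteine synthesis and both serine hydroxymethyltransferases, and 8 did not pass. Of 15 regulators and stress effectors, 1 fell, Chac1, and 14 did not pass. These 14 included the genes of CHOP, TRIB3 and the eIF2 kinases of the list, Eif2ak3 and Eif2ak4. The split into these classes was made with the values known, and Chac1, which also encodes an enzyme, was placed with the effectors. By limma's test 9 of the 31 fell, 0 rose and 22 did not pass at an adjusted p under 0.05; at an unadjusted p under 0.05, 13 were lower and 3 higher, beside 14.4% and 19.01% of all genes tested. At the adjusted threshold, of all 14953 genes tested 4.13% were lower, 3.5% were higher and 7.62% were called in either direction. The lower genes were Chac1, Gpt2, Asns, Cth, Shmt1, Mthfd1l, Shmt2, Gldc and Psph, with falls between 1.13-fold and 1.48-fold. The median difference was -0.082 over the 31 genes and 0.026 over all genes tested. The values of the groups did not overlap in 14 genes downward and 3 upward, against a background of 17.7% and 20.7% of all genes tested (38.5% in either direction). Without the array labelled Cre-ERT2 3, 10 of the 31 genes were lower and 0 higher, beside 9.002% lower and 11.3% higher of all genes. With any other single array left out, between 3 and 6 were lower and 0 higher, beside 0.508% to 1.85% lower of all genes.

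**Figure D1:**
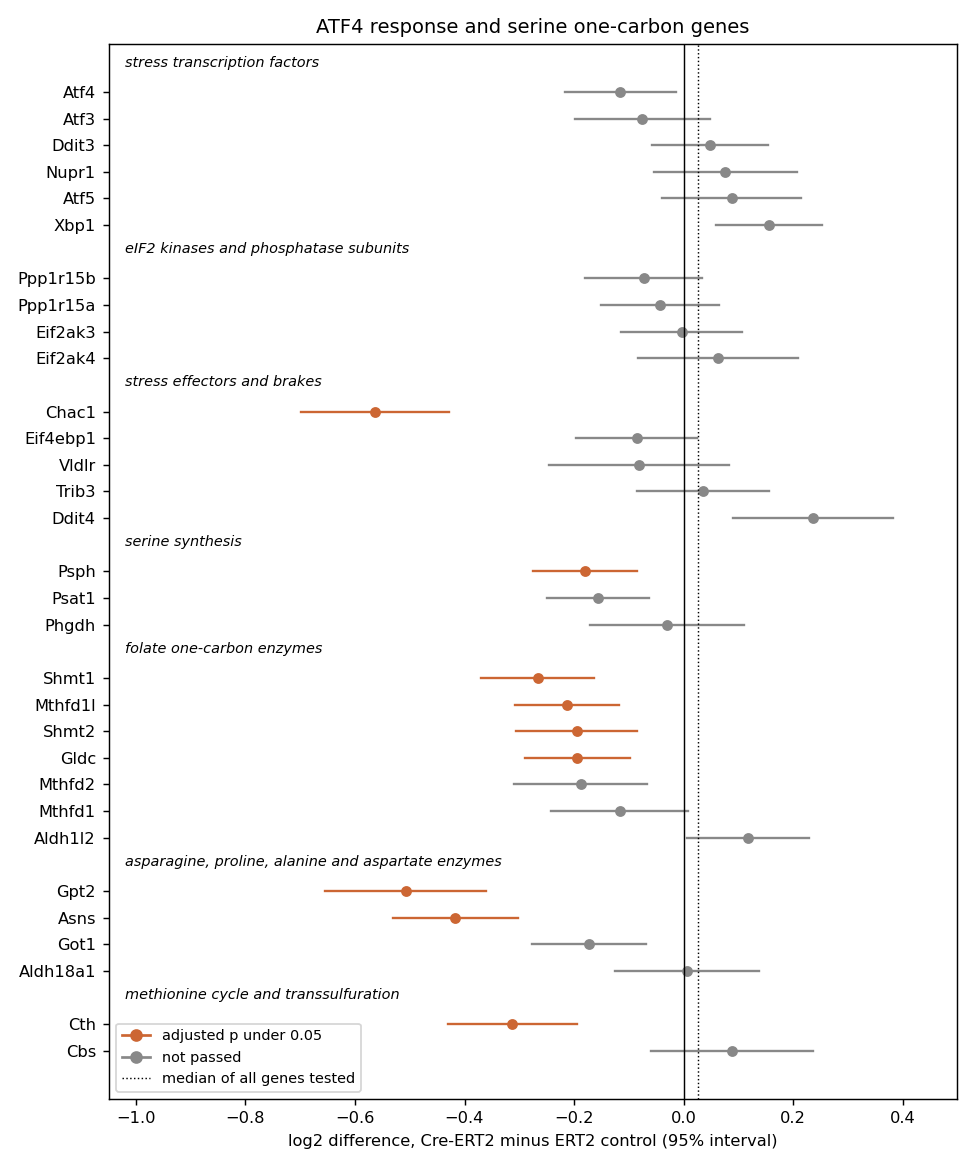
Log2 difference (arrays labelled Cre-ERT2 minus ERT2 control, x axis) of each of the 31 genes, grouped by role, with the 95% interval of the moderated fit. Orange marks genes with an adjusted p under 0.05; these 9 lie between -0.56 and -0.18, and the dotted line is the median of all genes tested at 0.026.

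ATF4 binds composite CCAAT-enhancer-binding protein and ATF elements whose core reads TGATGNAA, most often as TGATGCAA. Both strands of RefSeq promoter windows (GRCm38.p6, 250 bases before to 50 after each start) were searched for these letters, and every TGATGCAA is also a TGATGNAA. Of 27 tested genes of the list that had a window, 7 held TGATGNAA, against 3.97% of all 32851 windows, and 2.77% of the genes tested on the array held it. TGATGCAA was found in 5 of the 27, against 0.895% of all windows and 0.753% of the genes tested. The list was chosen for its known link to ATF4, so these higher shares are no result of these arrays. The 250 bases before the start are shown for Chac1 and Asns, the genes called lower that held the core, and 30 bases around the match for 5 genes that held it but were not called, with the matching bases in capitals. Each is written 5′ to 3′ on the gene's strand, where TTGCATCA and TTACATCA are the core read on the opposite strand.
Chac1, chr2:119350992-119351241, plus strand: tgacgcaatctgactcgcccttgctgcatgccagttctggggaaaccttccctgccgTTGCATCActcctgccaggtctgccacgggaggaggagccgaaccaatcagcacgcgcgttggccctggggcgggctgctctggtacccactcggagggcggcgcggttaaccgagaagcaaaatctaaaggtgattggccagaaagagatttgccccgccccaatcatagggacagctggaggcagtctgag
Asns, chr6:7693210-7693459, minus strand: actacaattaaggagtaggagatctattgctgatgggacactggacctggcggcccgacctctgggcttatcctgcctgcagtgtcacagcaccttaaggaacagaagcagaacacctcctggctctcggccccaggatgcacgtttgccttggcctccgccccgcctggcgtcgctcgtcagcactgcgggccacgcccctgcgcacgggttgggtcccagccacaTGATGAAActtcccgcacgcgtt
Got1, chr19:43524689-43524718, minus strand: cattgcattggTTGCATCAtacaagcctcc
Atf3, chr1:191183425-191183454, minus strand: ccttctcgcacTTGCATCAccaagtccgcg
Nupr1, chr7:126625562-126625591, minus strand: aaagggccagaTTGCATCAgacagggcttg
Vldlr, chr19:27216809-27216838, plus strand: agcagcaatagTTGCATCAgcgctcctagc
Trib3, chr2:152344028-152344057, minus strand: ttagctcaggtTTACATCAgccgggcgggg

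The core began at position -193 in Chac1 and -23 in Asns, counted from the start at 0, and at -102 in Got1, -110 in both Atf3 and Nupr1, -200 in Vldlr and 14 in Trib3. Among genes of the list called lower, 2 of 8 with a window held the core, and among those not called lower, 5 of 19 did. A match of letters is a description of the window and not a binding site. The endoplasmic reticulum stress element, CCAAT followed by 9 bases of any kind and CCACG, was in 0 of the 27 genes, against 0.119% of all windows and 0.152% of the genes tested. The E-box CACGTG was in 3, Nupr1, Cbs and Aldh18a1, against 7.15% of all windows and 11.05% of the genes tested, and none of these 3 was called.

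Among stress effectors, Chac1 showed the largest fall of the 31 genes. It encodes a γ-glutamylcyclotransferase that degrades glutathione and is a sensitive target of ATF4. Its log2 values were 10.15, 10.01 and 10.02 on the controls and 9.43, 9.57 and 9.49 on the arrays labelled Cre-ERT2. All 3 arrays labelled Cre-ERT2 lay below all controls by more than the range within either group. The difference was -0.56 ± 0.059 (SE), 1.48-fold lower, with limma's adjusted p = 0.00343. In 16 of 16 alternative analyses (filters, probe sets, scalings, models and arrays left out) Chac1 passed.

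Of the other 4 effectors, 0 passed limma's test, and 1, Ddit4, had an unadjusted p under 0.05. Ddit4, which encodes REDD1, an inhibitor of mTORC1 induced by several stresses, had values of 11.28, 11.15 and 11.37 on the controls and 11.52, 11.44 and 11.54 on the arrays labelled Cre-ERT2. Its groups did not overlap, with the arrays labelled Cre-ERT2 higher, and its difference of 0.24 ± 0.064 (SE) did not pass (adjusted p = 0.0565). It passed in 5 other settings, among them loess between arrays (adjusted p = 0.0340), while centring gave a difference of 0.13 (adjusted p = 0.203). Trib3, which encodes a pseudokinase that binds and restrains ATF4, had 9.14, 9.03 and 9.17 on the controls and 9.11, 9.18 and 9.16 on the arrays labelled Cre-ERT2, with overlapping groups. The 95% interval of its difference ran from -0.086 to 0.16, and its sign turned after quantile normalization and centring. Eif4ebp1, which encodes the translation inhibitor 4E-BP1, was lower on all arrays labelled Cre-ERT2 than on any control, with a difference of -0.085 that did not pass (adjusted p = 0.235) and was -0.051 without ERT2 control 1. Vldlr, which encodes a lipoprotein receptor, had a difference of -0.082 (adjusted p = 0.431), which was -0.0073 without Cre-ERT2 1 and -0.19 after quantile normalization and after loess. Its means of 7.40 on the controls and 7.32 on the arrays labelled Cre-ERT2 lie on either side of the filter on dim genes at 7.35.

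Of 6 transcription factors of the response, 0 passed limma's test, and 2, Atf4 and Xbp1, had an unadjusted p under 0.05, as did 33.4% of all genes tested. Atf4 mRNA had log2 values of 10.28, 10.24 and 10.26 on the controls and 10.09, 10.17 and 10.16 on the arrays labelled Cre-ERT2. Its groups did not overlap, with the arrays labelled Cre-ERT2 lower, and the difference of -0.12 ± 0.044 (SE) had a 95% interval from -0.22 to -0.014 (limma's adjusted p = 0.115). It passed after centring (0.0346) and with array weights (0.0354), where the differences were -0.22 and -0.14. After quantile normalization and after loess the difference of Atf4 was -0.092 and -0.089 (limma's adjusted p = 0.316 and 0.255). With any single array left out it did not pass (adjusted p from 0.103 to 0.310). ATF4 is controlled largely at translation, which arrays do not measure. Ddit3, which encodes CHOP, a factor linked to cell death under sustained stress, had 8.78, 8.81 and 8.88 on the controls and 8.89, 8.84 and 8.88 on the arrays labelled Cre-ERT2. Its groups overlapped, and the interval of the difference ran from -0.058 to 0.15. Atf3, Atf5 and Nupr1, which encode further stress-induced regulators, had differences of -0.076, 0.088 and 0.076 with adjusted p from 0.285 to 0.353. The signs of Ddit3 and Nupr1 turned after quantile normalization and after centring, that of Nupr1 also after loess, and that of Atf5 after centring.

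Xbp1 pointed upward. It encodes the transcription factor of the IRE1 arm of the unfolded protein response, and its activity depends on splicing that a single gene-level probe set does not resolve. Its log2 values were 12.98, 13.02 and 13.00 on the controls and 13.19, 13.14 and 13.14 on the arrays labelled Cre-ERT2, with no overlap. The difference of 0.16 ± 0.042 (SE) did not pass as reported (adjusted p = 0.0567). It passed in 5 other settings (adjusted p = 0.00509 to 0.0474), and after centring it was 0.054 (adjusted p = 0.604).

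The eIF2 kinases of the list and the regulatory subunits of the phosphatase that reverses eIF2α phosphorylation had small differences. Of these genes 0 of 4 passed limma's test, also at an unadjusted p under 0.05. Eif2ak3 had 10.93, 10.93 and 10.95 on the controls and 10.97, 10.86 and 10.97 on the arrays labelled Cre-ERT2. Its difference was -0.0037, with a 95% interval from -0.11 to 0.11. Eif2ak4 differed by 0.063 (interval -0.083 to 0.21) and ranged more widely on the arrays labelled Cre-ERT2, at 10.23, 9.98 and 10.12, than on the controls, at 10.04, 10.06 and 10.04. Ppp1r15a, which encodes the stress-induced subunit GADD34, differed by -0.043 and the constitutive subunit gene Ppp1r15b by -0.073. Ppp1r15b is the only gene of the 31 with a second probe set, which differed by 0.024 (adjusted p = 0.854). The sign of Eif2ak3 turned after loess and after quantile normalization, and Eif2ak4 changed sign after centring.

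**Figure D2:**
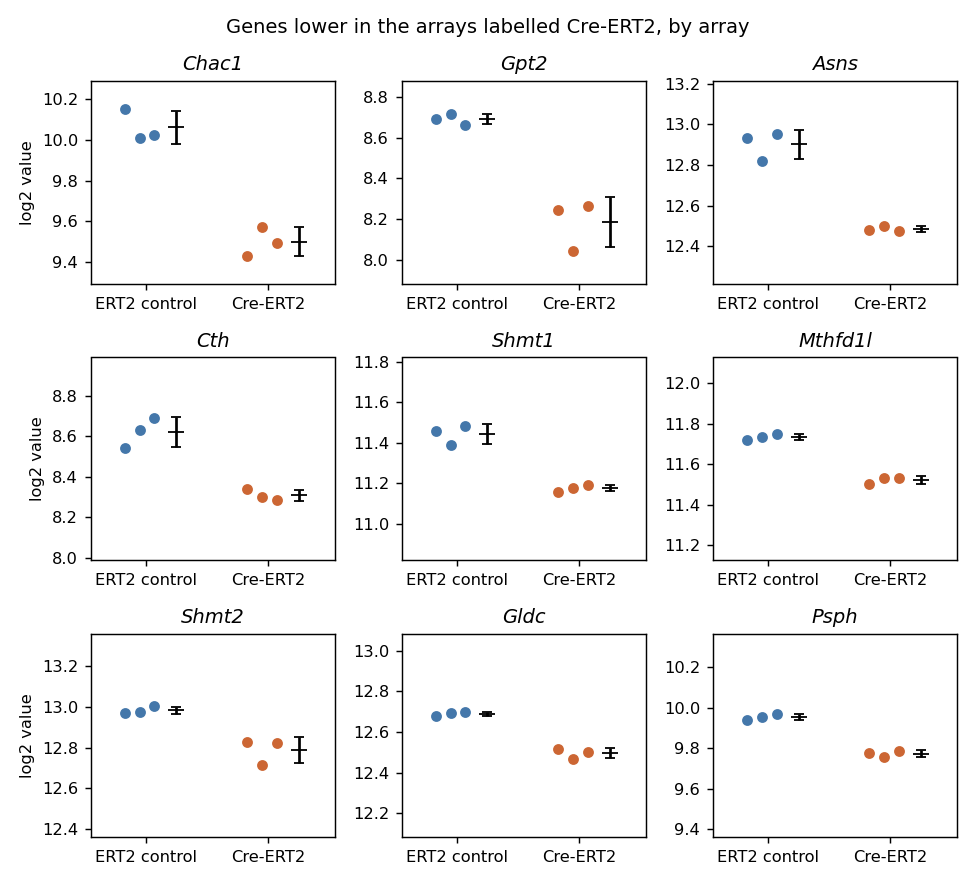
Log2 value (y axis, 1 unit in height in every panel) of the 9 genes called lower on each of the 3 ERT2 control arrays (blue) and 3 arrays labelled Cre-ERT2 (orange), with the mean and SD in black beside the points. In all 9 genes the groups do not overlap, from Chac1 with a difference of -0.56 to Psph with -0.18.

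Of enzymes of asparagine, alanine, aspartate and proline metabolism, 2 of 4 were lower and 2 did not pass. Asns encodes asparagine synthetase, an ATF4 target and the enzyme whose activity is set against asparaginase treatment in acute lymphoblastic leukaemia. Its log2 values were 12.94, 12.82 and 12.95 on the controls and 12.48, 12.50 and 12.48 on the arrays labelled Cre-ERT2. The 3 arrays labelled Cre-ERT2 lay close together and all below the lowest control. Asns fell by 0.42 ± 0.050 (SE) on the log2 scale, 1.33-fold, with limma's adjusted p = 0.00536. Gpt2, which encodes the mitochondrial alanine aminotransferase, had 8.69, 8.72 and 8.67 on the controls and 8.24, 8.04 and 8.27 on the arrays labelled Cre-ERT2. Its fall was 1.42-fold (log2 difference -0.51 ± 0.064, SE, adjusted p = 0.00633), with no overlap. Asns passed in 16 of 16 other settings and Gpt2 in the 15 that tested it.

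Got1, which encodes the cytosolic aspartate aminotransferase, had 12.15, 12.21 and 12.12 on the controls and 11.96, 12.01 and 11.997 on the arrays labelled Cre-ERT2. The arrays labelled Cre-ERT2 lay below all controls, and the difference of -0.17 ± 0.045 (SE) just missed the threshold (adjusted p = 0.0545). It passed in 4 other settings: the stricter filter at the 50th percentile, centring, trend and robust estimation, and array weights (adjusted p = 0.0102 to 0.0304). Aldh18a1, which encodes the enzyme that commits glutamate to proline synthesis, differed by 0.0062 with a 95% interval from -0.12 to 0.14, and its sign turned after centring.

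The serine synthesis pathway takes an intermediate of glycolysis to serine in 3 steps, and 1 of the 3 genes was lower. Phgdh, which encodes the entry enzyme, had log2 values of 11.44, 11.35 and 11.50 on the controls and 11.30, 11.45 and 11.45 on the arrays labelled Cre-ERT2. Its groups overlapped, with an interval from -0.17 to 0.11 and a sign that turned after loess. Psat1, which encodes the aminotransferase of the middle step, had 12.56, 12.55 and 12.57 on the controls and 12.41, 12.41 and 12.40 on the arrays labelled Cre-ERT2. The gap between the groups of Psat1 was many times the spread within them, yet limma, which moderates each gene's variance toward that of all genes, gave an adjusted p of 0.0539 to its difference of -0.16 ± 0.041 (SE). In the same 4 settings as Got1 it passed (adjusted p = 0.00653 to 0.0271). Psph, which encodes the phosphatase of the last step, had 9.94, 9.95 and 9.97 on the controls and 9.78, 9.76 and 9.79 on the arrays labelled Cre-ERT2. It fell by 0.18 ± 0.041 (SE) on the log2 scale (adjusted p = 0.0404).

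Folate enzymes held the most calls, with 4 of 7 lower, 0 higher and 3 not passed. Serine hydroxymethyltransferase, which splits serine into glycine and a one-carbon unit, was lower in both compartments. Shmt1, the cytosolic form, had 11.46, 11.39 and 11.48 on the controls and 11.16, 11.18 and 11.19 on the arrays labelled Cre-ERT2, a 1.20-fold fall (log2 difference -0.27 ± 0.045, SE, adjusted p = 0.0193). Shmt2, the mitochondrial form, had 12.97, 12.98 and 13.00 on the controls and 12.83, 12.72 and 12.82 on the arrays labelled Cre-ERT2, a 1.14-fold fall (-0.20 ± 0.048, SE, adjusted p = 0.0478). Neither gene's groups overlapped.

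Downstream of Shmt2, Mthfd1l, which encodes the mitochondrial enzyme that releases formate, had 11.72, 11.73 and 11.75 on the controls and 11.50, 11.53 and 11.53 on the arrays labelled Cre-ERT2. Its fall was 1.16-fold (log2 difference -0.21 ± 0.042, SE, adjusted p = 0.0272). Mthfd2, which encodes the mitochondrial dehydrogenase and cyclohydrolase, had 12.03, 12.12 and 11.998 on the controls and 11.80, 11.88 and 11.91 on the arrays labelled Cre-ERT2. Its groups did not overlap and it did not pass (-0.19 ± 0.053, SE, adjusted p = 0.0632), except in 5 other settings, 1 of them the fit that left out Cre-ERT2 3 (adjusted p = 0.0437). Gldc, which encodes the decarboxylase of the glycine cleavage system, had 12.68, 12.69 and 12.70 on the controls and 12.52, 12.47 and 12.50 on the arrays labelled Cre-ERT2. It fell by 0.19 ± 0.042 (SE) on the log2 scale, with an adjusted p of 0.0348.

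The cytosolic trifunctional enzyme gene Mthfd1 differed by -0.12 with overlapping groups (adjusted p = 0.169). Aldh1l2, which encodes the mitochondrial formyltetrahydrofolate dehydrogenase, was the only folate gene of the 7 with a positive difference, 0.12 (adjusted p = 0.136). Its means of 7.30 and 7.42 lie on either side of the filter on dim genes at 7.35, and the 1496 dimmest genes tested had a median difference of 0.11. Its difference was 0.0076 after loess, 0.014 after quantile normalization and 0.015 after centring, and with array weights it was 0.16 and passed (adjusted p = 0.0371). By location, 4 of 7 mitochondrial enzymes of the list and 4 of 9 cytosolic enzymes were lower.

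In transsulfuration, the pathway from homocysteine to cysteine, the gene of the last step was lower and that of the first did not pass. Cth, which encodes the γ-lyase that releases cysteine, had log2 values of 8.54, 8.63 and 8.69 on the controls and 8.34, 8.30 and 8.29 on the arrays labelled Cre-ERT2. Its fall was 1.24-fold (log2 difference -0.31 ± 0.051, SE, adjusted p = 0.0172), with no overlap. Cbs, which encodes the synthase of the first step, had 8.43, 8.44 and 8.40 on the controls and 8.50, 8.64 and 8.39 on the arrays labelled Cre-ERT2, with overlapping groups. Its interval ran from -0.060 to 0.23, and its sign turned after centring.

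As a class, the enzymes lay lower on every array labelled Cre-ERT2 than on every control, and the regulators did not. The median deviation of the 16 enzymes from each gene's mean over the 6 arrays was 0.077, 0.092 and 0.11 on the controls and -0.10, -0.10 and -0.077 on the arrays labelled Cre-ERT2. For the 15 regulators and effectors, Chac1 among them, it was -0.0027, -6.67e-04 and 0.013 on the controls and -0.026, -0.011 and 0.019 on the arrays labelled Cre-ERT2. The array labelled Cre-ERT2 3, which resembled controls over all probe sets, lay with its own group for the enzymes. These 2 classes were drawn with the values known, and 8 of the 16 enzymes are genes called lower from these same values. The contrast is therefore a description and not a test.

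**Figure D3:**
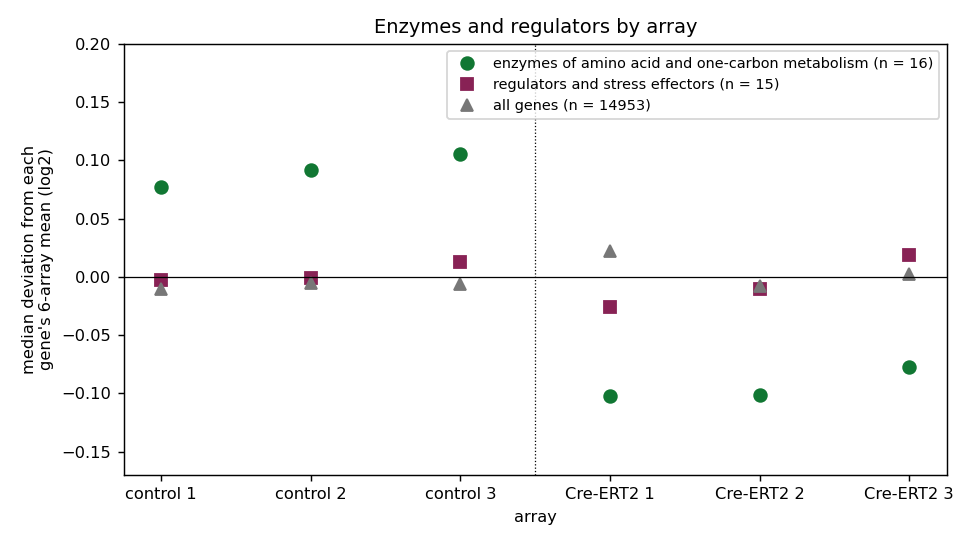
Median deviation from each gene's 6-array mean (log2, y axis) on each array (x axis) for 16 enzymes of amino acid and one-carbon metabolism, 15 regulators and stress effectors, and all 14953 genes tested. The enzymes lie between 0.077 and 0.11 on the controls and between -0.10 and -0.077 on the arrays labelled Cre-ERT2, while the regulators stay between -0.026 and 0.019.

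Differences on these arrays also varied with brightness. With the genes tested cut into 10 bins of equal size by mean value, the median difference ran from 0.12 in bin 3, counted from the dimmest, to -0.061 in bin 7, and the share called lower from 0.535% in bin 1 to 8.56% in bin 6. Less the median of its own bin, the difference was -0.51 for Chac1, -0.59 for Gpt2, -0.41 for Asns and -0.40 for Cth. For the other 5 genes called lower it lay between -0.22 and -0.13. Atf5, Cbs and Aldh1l2, which did not pass, had differences of 0.088, 0.088 and 0.12, beside bin medians of 0.088, 0.088 and 0.11. Less their own bin medians, Xbp1 and Ddit4 stayed positive, at 0.17 and 0.27. Atf4, in bin 7, was at -0.054 less the bin median of -0.061. Centring each array on its median moved the median of all genes to -0.077, and gave 14 of the 31 genes lower and 0 higher, beside 223 higher and 2797 lower of all genes, against 523 and 617 as reported. It moved the differences of Gldc, Psph and Shmt2 by over 1.5 times, to -0.30, -0.28 and -0.30.

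Calls of the smaller falls depended on single arrays. Leaving out any 1 array, Chac1, Asns and Gpt2 still passed. Cth did not pass without ERT2 control 2 (adjusted p = 0.0711), ERT2 control 3 (0.0522) or Cre-ERT2 1 (0.0624), and Shmt1 did not without ERT2 control 1 (0.104), ERT2 control 3 (0.0569) or Cre-ERT2 1 (0.0767). Mthfd1l passed only without Cre-ERT2 2 or Cre-ERT2 3, and its adjusted p was 0.124, 0.0900 and 0.0681 without ERT2 control 1, 2 and 3 and 0.0941 without Cre-ERT2 1. Gldc, Psph and Shmt2 passed only without Cre-ERT2 3, and without any other array their adjusted p ran from 0.0725 to 0.163. The direction of all 9 genes stayed downward in each of these fits, and their log2 differences moved by less than 1.5 times.

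**Figure D4:**
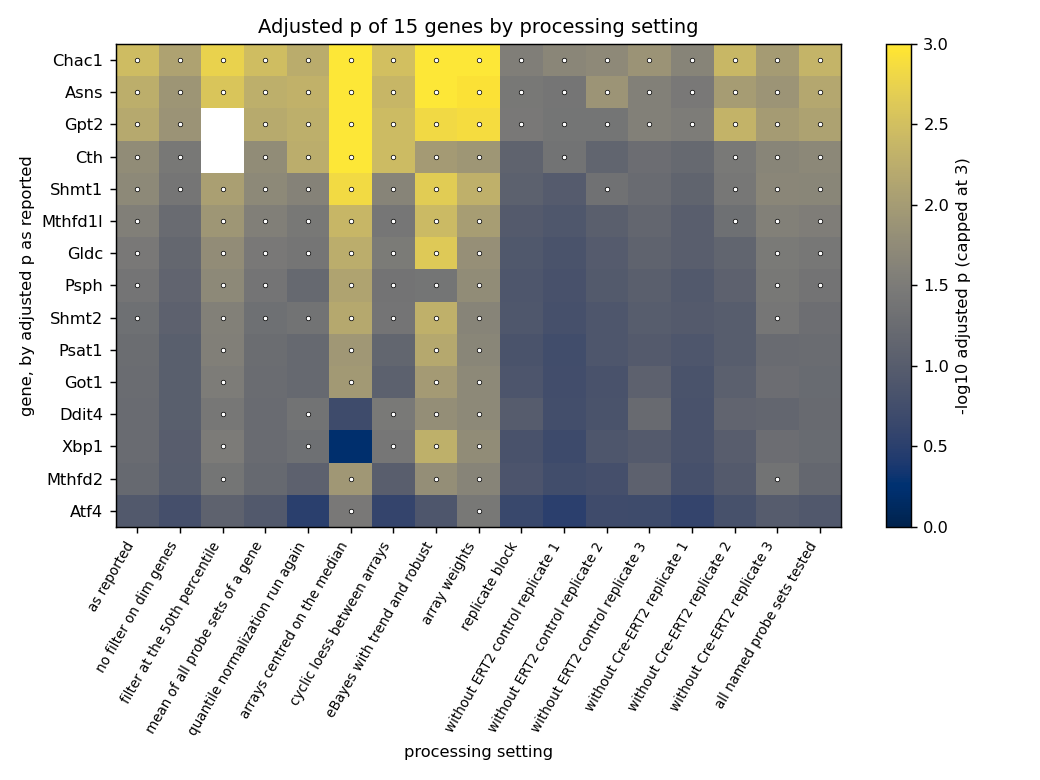
Adjusted p (colour, as -log10, capped at 3) of the 15 genes with the smallest adjusted p, in rows, under the reported setting and 16 others, in columns. A white dot marks an adjusted p under 0.05, and a blank cell a gene that the stricter filter left out; the dots of Chac1, Asns and Gpt2 fill every cell tested.

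Other genes of the same pathways were read from 6 further lists, with 128 genes tested, of which 17 were lower, 1 higher and 110 did not pass. Beside these and the counts of each list below, 4.13% of all genes tested were lower and 3.5% higher. Of 31 tested genes in the list of other ATF4 and CHOP targets, 10 were lower, 1 was higher and 20 did not pass, with a median difference of -0.090. Slc1a4, which encodes a transporter of alanine, serine and cysteine, had log2 values of 9.71, 9.85 and 9.78 on the controls and 9.16, 9.17 and 9.36 on the arrays labelled Cre-ERT2, with no overlap. Its fall was 1.47-fold (-0.55 ± 0.066, SE, adjusted p = 0.00544), close in size to that of Chac1, and it passed with each array left out. The glycine transporter gene Slc6a9 fell by 0.31 and the tRNA synthetase genes Yars, Sars and Cars by 0.30, 0.27 and 0.25 on the log2 scale. The other 5 lower genes of this list lie outside the limit of 6 set for naming and are given after their values were seen: Lonp1, Gars, Tars, Nars and Slc7a5, with differences from -0.30 to -0.20.

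Sesn2 was the exception. It encodes sestrin 2, a leucine-sensing inhibitor of mTORC1 that both ATF4 and p53 are known to induce. Its log2 values were 10.11, 10.06 and 10.14 on the controls and 10.42, 10.33 and 10.45 on the arrays labelled Cre-ERT2, a 1.23-fold rise (0.30 ± 0.051, SE, adjusted p = 0.0193). The groups did not overlap, in the direction also seen for Ddit4. Its call ended after centring (adjusted p = 0.0555) and with the replicate number as a block (0.0673). It also ended without ERT2 control 1 (0.0966), ERT2 control 2 (0.0780) or Cre-ERT2 1 (0.0772).

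Folate genes outside the list included 3 lower of 17 tested, 0 higher and 14 not passed. They were Ggh and Fpgs, whose enzymes remove and add the glutamate tails that keep folate in cells (log2 differences -0.38 and -0.22), and Gcsh, which encodes the lipoyl carrier of the glycine cleavage system (-0.37). Gcsh and Gldc encode parts of the same system, and with single arrays left out they passed in 2 and 1 of 6 fits. Of 21 methionine, transsulfuration and glutathione genes, 3 fell, 0 rose and 18 did not pass: Mat2b, which encodes the regulatory subunit of the enzyme that makes S-adenosylmethionine (-0.33), the sulfite oxidase gene Suox (-0.28) and Adi1, of methionine salvage (-0.24). Of 14 genes of eIF2, eIF2B and their regulation, 1 was lower, Eif2b1 (-0.23), 0 higher and 13 did not pass. For a list of this size, 1 call is close to the 4.13% lower of all genes tested. Slc6a9, Yars, Sars, Cars and the 7 genes named in this paragraph each lost their call without ERT2 control 1 (adjusted p from 0.0577 to 0.158) and without Cre-ERT2 1 (0.0526 to 0.118), and all of them but Yars and Mat2b also without ERT2 control 2 (0.0601 to 0.111).

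Of 28 tested genes of the XBP1 and ATF6 arm and of folding in the endoplasmic reticulum, 0 were lower or higher at an adjusted p under 0.05, with a median difference of -0.010 (limma). At an unadjusted p under 0.05 there were 5, with 1 higher and 4 lower, a smaller share than the 33.4% of all genes tested. Hspa5, which encodes the chaperone BiP, and Dnajb9, an XBP1 target, were picked after their values were seen. Hspa5 had 13.26, 13.22 and 13.27 on the controls and 13.24, 13.29 and 13.26 on the arrays labelled Cre-ERT2, with overlapping groups and an interval from -0.082 to 0.11. Dnajb9 had the lowest difference of the 28, -0.33 ± 0.11 (SE), against the list median of -0.010. It did not pass (adjusted p = 0.0847), and its sign was opposite to that of Xbp1. It passed as lower in 4 other settings: centring (adjusted p = 0.00506), trend and robust estimation (0.0418), array weights (0.0313) and without Cre-ERT2 3 (0.0327), and without Cre-ERT2 2 its difference was -0.21. Likewise 0 of 17 tested enzymes of serine, proline, aspartate, alanine and glutamine metabolism outside the list passed, with differences from -0.16 to 0.19 and 2 at an unadjusted p under 0.05, against the same 33.4%.

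**Figure D5:**
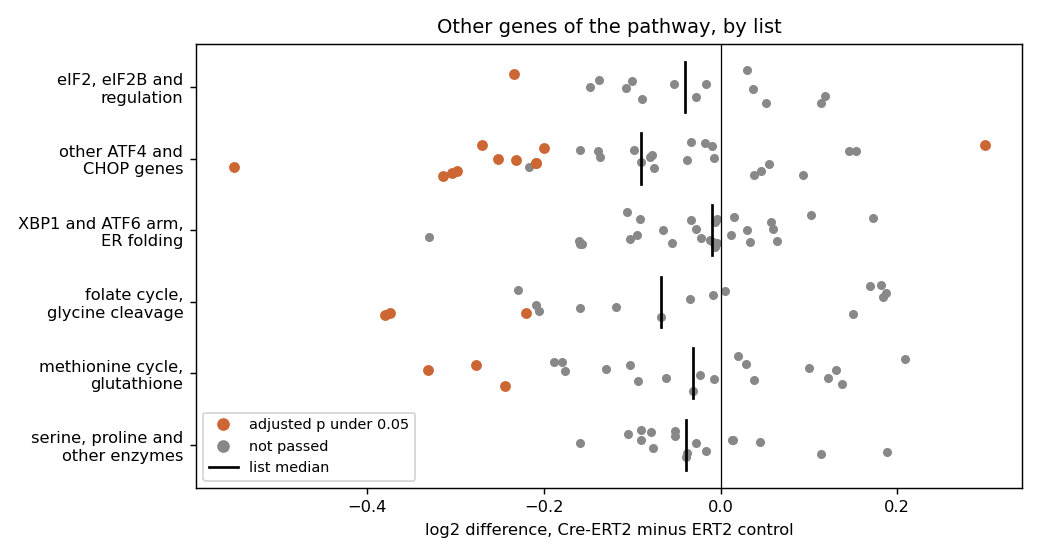
Log2 difference (x axis) of every tested gene of the 6 further lists (y axis), with orange for an adjusted p under 0.05, grey for genes that did not pass and a black line at the list median; vertical scatter within a list carries no meaning. Orange points lie below 0 in 4 lists, the single one above 0 is Sesn2 at 0.30, and 2 lists have none.

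Markers of myeloid, stromal, and T and NK cells were on average higher on the arrays labelled Cre-ERT2, as were dim genes in general. Over tested genes the marker medians were 0.21, 0.18 and 0.16, beside medians of 0.11 to 0.12 in bins 1 to 3 of all genes. Of all genes tested, 3.5% were called higher. The mean log2 value over 12 myeloid genes was 7.61 to 7.64 on the controls and 7.75 to 7.86 on the arrays labelled Cre-ERT2, with 2 of 6 tested genes higher, Lyz2 (0.79) and Lyz1 (0.36), and 6 of the 12 under the filter on dim genes. Lyz2, with means of 9.24 and 10.04, is not among the dim genes and lies in bin 6, where the median difference was -0.054. Lyz1 lies in bin 4, where it was 0.088. Over 12 stromal genes the mean log2 value was 7.76 to 7.83 against 7.88 to 8.03, with 1 of 9 tested genes higher, Sparc (0.24). Over 11 T and NK cell genes it was 7.05 to 7.14 against 7.17 to 7.30, with 1 of 5 higher, Zap70 (0.23). Over 8 erythroid and megakaryocyte genes the ranges overlapped, at 7.48 to 7.54 against 7.51 to 7.67, and 0 of 5 passed limma's test (1 at an unadjusted p under 0.05). Their part in the falls of the enzymes was not tested, and fewer cells expressing a gene and less RNA per cell cannot be told apart in these samples.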

How the data were processed

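Each of the 6 arrays has deposited log2 values for 35556 probe sets, per the file headers and the values, and these were not normalized again. The submitters' processing notes list RMA and Partek 6.5, with no order or settings. The array's genome build was not stated in the labels. Through the array annotation 21789 probe sets had 1 gene symbol, 1621 several and 12146 none. Genes with a mean under the 25th percentile (7.35) were left out, which left 14953 of 19938. The comparison used limma 3.58.1 (R 4.3.3), with lmFit and eBayes at default settings, two-sided, and p adjusted by Benjamini-Hochberg across the 14953 genes; calls required an adjusted p under 0.05, and intervals cover 95%. Arrays have no depth, and 3 per group limit the precision. The genes, lists and rule for named genes (all 31 and, of each further list, up to 6 that passed, by smallest p) were chosen with earlier results of these data known. The procedure was tested on simulated data with independent noise and added differences larger than most of the falls called here, so that test does not cover the smaller falls. Promoter windows came from RefSeq (GRCm38.p6). Alternatives were other filters, probe set choices, scalings, models and thresholds, the replicate number as a block, and each array left out. Tables were made with Python 3.11.15 and pandas 2.3.3.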

Additional observations from a re-analysis of the deposited data

How the results depend on the processing

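Of 31 genes, 9 were called as reported. The count was 3 at an adjusted p threshold of 0.01, 5 with no filter on dim genes, 14 after centring, 14 (2 higher, 12 lower) with trend and robust estimation, 16 (3 higher, 13 lower) with array weights, and 3 to 10 with single arrays left out. The count over all genes, 1140 as reported, was 143, 437, 3020, 2147 and 3993 in the same settings, and 116 to 3042 with arrays left out. The median difference of the 31 genes was -0.11 after quantile normalization, -0.18 after centring, -0.11 with array weights and -0.10 to -0.060 with arrays left out, where the cause was not tested. Replicate numbers did not pair the arrays: same-numbered arrays had correlations of 0.069, -0.17 and -0.40 between their deviations from the group means. With the replicate number as a block, 3 of the 31 genes and 147 of all genes passed. Genes that did not pass changed sign as follows. After quantile normalization Ddit3 was -0.020, Nupr1 -0.015, Eif2ak3 0.038 and Trib3 -0.0014. After centring Atf5 was -0.015, Ddit3 -0.054, Nupr1 -0.026, Eif2ak4 -0.039, Trib3 -0.067, Aldh18a1 -0.096, Cbs -0.015 and Hspa5 -0.087. After loess Nupr1 was -0.0050, Eif2ak3 0.031 and Phgdh 0.0022, and with array weights Eif2ak3 was 0.019. With single arrays left out, Aldh18a1 ran from -0.027 to 0.054, Trib3 from -0.0069 to 0.065, Eif2ak3 from -0.023 to 0.033 and Phgdh from -0.069 to 0.021. Over the alternatives, the differences of all 22 genes that did not pass moved by over 1.5 times at least once (all 22 with centring, 14 with quantile normalization or loess, 13 with 1 array left out), as did 3 of the 9 that passed, with centring. All other alternatives of the counts lay within 1.5 times. Background correction was not varied, because probe-level signals are not used here.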
